A study of Mus musculus with 26 samples.

Results

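The comparison described here sets a GFP-mCherry fusion protein against mCherry-Fc on the same cells, Ba/F3/gp130 cells that carry synthetic IL-22 receptors. Its members were chosen by title: the 6 arrays stimulated with GFP-mCherry and the 6 stimulated with mCherry-Fc, which makes 12 of the 26 arrays of the series. Ba/F3 is a murine pro-B cell line. These Ba/F3/gp130 derivatives express gp130, the signal chain of the IL-6 family. They depend on interleukin-3 or on Hyper-IL-6, a fusion of IL-6 and its soluble receptor. The synthetic receptors join IL-10R2 to a nanobody against mCherry, and IL-22Rα1 to a nanobody against GFP. GFP-mCherry can therefore bind both chains, while dimeric mCherry-Fc can bind the IL-10R2 chain and carries no GFP for the other. All cells of the 12 arrays were washed 4 times, starved for 4 h without serum and given 100 ng/ml of either protein. Stimulation lasted 2 h, as no title names another time. The doses match by mass, and molar amounts are not given in the sources used here. 6 untreated arrays of the same cells give the level without ligand, and 8 arrays of cells with natural receptors (4 with IL-22, 4 untreated) give a comparison of their own and enter the estimate of the spread, since all 26 arrays were fitted in 1 model. The labels do not say whether arrays of a group come from separate cultures or clones, so p-values measure the spread between these samples, which may be technical.

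IL-22 signals through IL-22Rα1, the chain with a long cytoplasmic part, paired with IL-10R2, a short chain that IL-10, IL-26 and the type III interferons share. Joined chains activate the Janus kinases JAK1 and TYK2 and then STAT3, whose targets include the feedback inhibitor Socs3. NF-kB is a separate transcription factor held in the cytoplasm by IkB proteins, and it induces the genes of its own inhibitors within a short time, so that IkB and Tnfaip3 transcripts serve as a readout of its activity.

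Every value below is a log2 probe set intensity, so a difference of 1 is a doubling. Values of different genes are not compared, because probe sets differ in brightness. Array medians of the 12 arrays lay between 6.06 and 6.14, and arrays correlated at 0.9901 to 0.9944 within a ligand and at 0.9896 to 0.9938 between ligands, across probe sets. The pro-B label was checked on marker genes: the B cell receptor components Cd79a and Cd79b were bright with both ligands (9.72 and 9.70 for Cd79a, 9.02 and 9.04 for Cd79b, GFP-mCherry first), whereas the B lineage factors Pax5 (5.30 and 5.28) and Ebf1 (4.68 and 4.64) lay below every array's median. Summed linear intensity of the 21 B lineage markers was 4260 to 4590 with GFP-mCherry and 4360 to 4560 with mCherry-Fc. 15 mast cell markers gave 14900 to 15900 and 14600 to 15400, and 11 erythroid and megakaryocyte markers 11000 to 11900 and 11100 to 12000. 17 myeloid markers gave 5650 to 6040 and 5230 to 5720, and T cell markers at most 591. Probe sets differ in brightness, so these sums cannot rank lineages or settle the label. Every sum overlapped between ligands. Of the 15 mast cell markers 1 passed, with 6 differences above 0 and 9 below (median -0.02). It was Hdc, outside the naming rule, which was higher with GFP-mCherry (0.48, limma's adjusted p = 0.0346). Hdc lost the call after a further quantile normalization (0.0681), after centring on array medians (0.059) and without several single arrays (up to 0.119). In these bulk samples, a change in fewer cells cannot be told apart from a smaller change in each cell.

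The cells given GFP-mCherry had higher RNA for 10 of 18 NF-kB inhibitor and feedback genes, 5 of 17 subunit, kinase and TRAF-cIAP genes and 7 of 36 effector genes, led by Nfkbia at 8.90-fold. The cells given mCherry-Fc had higher RNA for Id1, Dusp6, Egr2 and Myc, for 6 cholesterol synthesis genes and for 3 genes of mitosis. Socs3 and Pim1, which stood well above untreated cells with either ligand, did not differ between the ligands by the test. Of 19938 genes, 218 passed the threshold (limma, Benjamini-Hochberg adjusted p below 0.05), which is 1.09% of those tested. 144 were higher with GFP-mCherry (0.722%) and 74 lower (0.371%). In a fit of the 12 arrays alone 460 genes passed. With the replicate number as a block, 100 genes passed, 76 higher and 24 lower, and 91 of them were among the 218. Numbers 8, 10 and 15 occur with mCherry-Fc alone and add nothing to the contrast in that fit. The block fit therefore rests on mCherry-Fc replicates 9, 13 and 14, fewer arrays than the main model uses.

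The higher genes also moved further. The median difference was 0.41 among the 144 and -0.31 among the 74, beside 0.002 over all genes. At least 1.5-fold was reached by 47 of the higher and 8 of the lower genes, and at least 2-fold by 18 and 1. The arrays of the ligands did not overlap for 136 of the 144 and 63 of the 74. Over all genes tested, 2.96% did not overlap, 1.51% (all above) and 1.45% (all below).

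**Figure D1:**
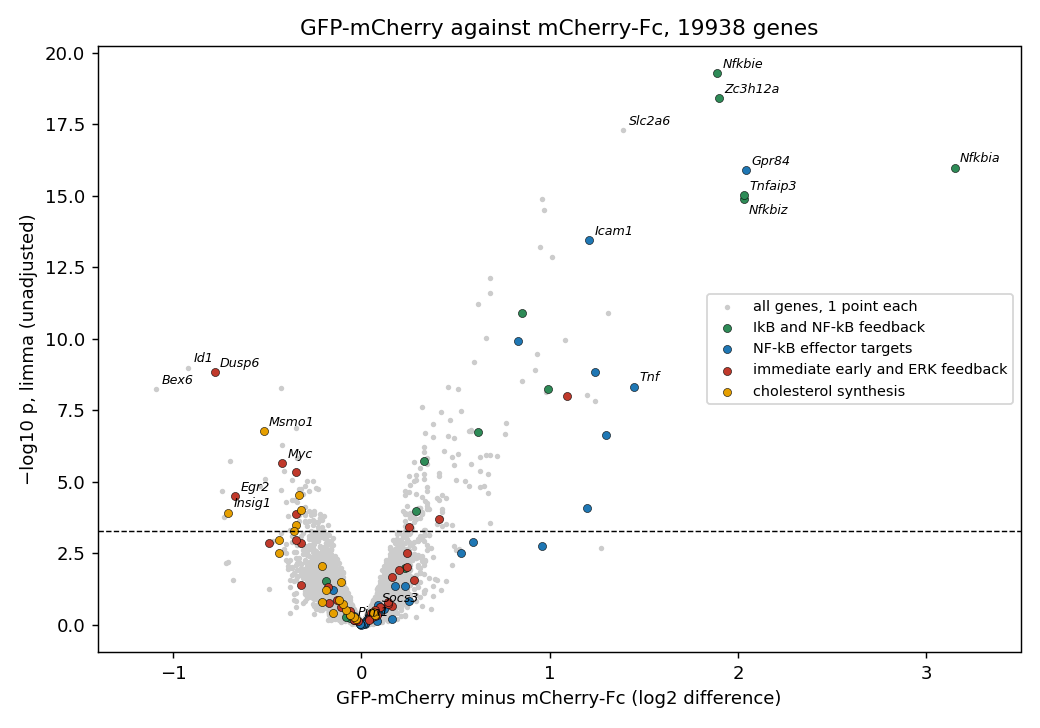
Log2 difference between GFP-mCherry and mCherry-Fc (x axis) against −log10 of limma's unadjusted p (y axis), 1 point per gene, with members of 4 gene lists coloured; the dashed line marks the largest p that passed the adjusted threshold. The upper right is held by IkB and NF-kB target genes such as Nfkbia at 3.15 and Nfkbie at 1.89, while Bex6, Id1 and Dusp6 lie furthest out and up on the left and Socs3 and Pim1 lie below the line.

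Of the 6 largest rises, 5 were in NF-kB inhibitor or feedback genes, and the other was in the effector gene Gpr84, second at 2.04. Nfkbia encodes IkBα, the inhibitor that is degraded and then made anew when NF-kB is active. Its lowest, median and highest levels were 11.61, 11.69 and 11.98 with GFP-mCherry and 8.38, 8.58 and 8.74 with mCherry-Fc. The groups stood far apart, and the mCherry-Fc arrays lay in the range of the untreated ones (8.37 to 8.76). The difference was 3.15 (SE 0.17, 95% interval 2.80 to 3.51, n = 6 per ligand, adjusted p = 5.11e-13).

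Tnfaip3 encodes A20, a ubiquitin-editing enzyme that shuts off signals to NF-kB. It stood at 9.35, 9.44 and 9.69 (lowest, median, highest) with GFP-mCherry and at 7.31, 7.41 and 7.62 with mCherry-Fc, a difference of 2.03 (SE 0.12, adjusted p = 3.19e-12). Here too mCherry-Fc did not differ from untreated cells by the test (-0.02, adjusted p = 0.928), and untreated arrays spanned 7.26 to 7.62. Nfkbie, which encodes IkBε, was different in that respect. It stood at 9.08, 9.12 and 9.57 with GFP-mCherry and at 7.18, 7.30 and 7.51 with mCherry-Fc, against 6.61 to 6.95 in untreated cells. Its difference between ligands was 1.89 (SE 0.08, adjusted p = 1.05e-15), and mCherry-Fc itself was 0.51 above untreated (adjusted p = 3.27e-05). So Nfkbie stepped up from untreated to mCherry-Fc to GFP-mCherry with no overlap between neighbouring groups.

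Nfkbiz encodes the nuclear protein IkBζ, which helps induce secondary NF-kB targets. It was at 9.90, 9.93 and 10.27 with GFP-mCherry and at 7.92, 7.96 and 8.02 with mCherry-Fc (difference 2.03, SE 0.12, adjusted p = 3.27e-12). Zc3h12a, which encodes the RNase Regnase-1 that degrades inflammatory transcripts, was at 9.11, 9.31 and 9.66 against 7.32, 7.40 and 7.55 (difference 1.90, SE 0.08, adjusted p = 3.77e-15). Nfkbid, which encodes another nuclear IkB protein, was at 8.80, 8.96 and 9.04 against 7.86, 8.11 and 8.23. All 3 of these pairs of groups were apart. Nfkbid differed by 0.85 between the ligands (adjusted p = 1.49e-08) and, like Nfkbie, was already above untreated with mCherry-Fc (0.60, adjusted p = 2.96e-06).

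In the list of IkB proteins and NF-kB feedback inhibitors, 10 of 18 measured members passed as higher and 0 as lower, with a median difference of 0.31. Beyond those above, the ubiquitin-binding A20 partners Tnip3 (0.99, adjusted p = 3.56e-06) and Tnip1 (0.62, adjusted p = 7.68e-05) were higher. N4bp1 (0.33, adjusted p = 0.000532) and Nfkbib, the gene of IkBβ (0.29, adjusted p = 0.015), passed by less, and both lost the call with the replicate block (adjusted p = 0.177 and 0.325). Nfkbib also lost it without GFP-mCherry replicate 12 (adjusted p = 0.0508) or mCherry-Fc replicate 9 (0.0522). The remaining 8 members did not pass. They were Bcl3 (0.23), the deubiquitinase genes Cyld (0.08) and Otulin (-0.01), Irak3 (-0.04), Tnip2 (-0.05), Tnfaip8l2 (-0.06), Zfp36 (-0.08) and Traf3ip3 (-0.19). Zfp36 encodes tristetraprolin, which destabilises mRNA, and it had been raised by either ligand over untreated cells, by 0.60 with GFP-mCherry and 0.68 with mCherry-Fc.

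**Figure D2:**
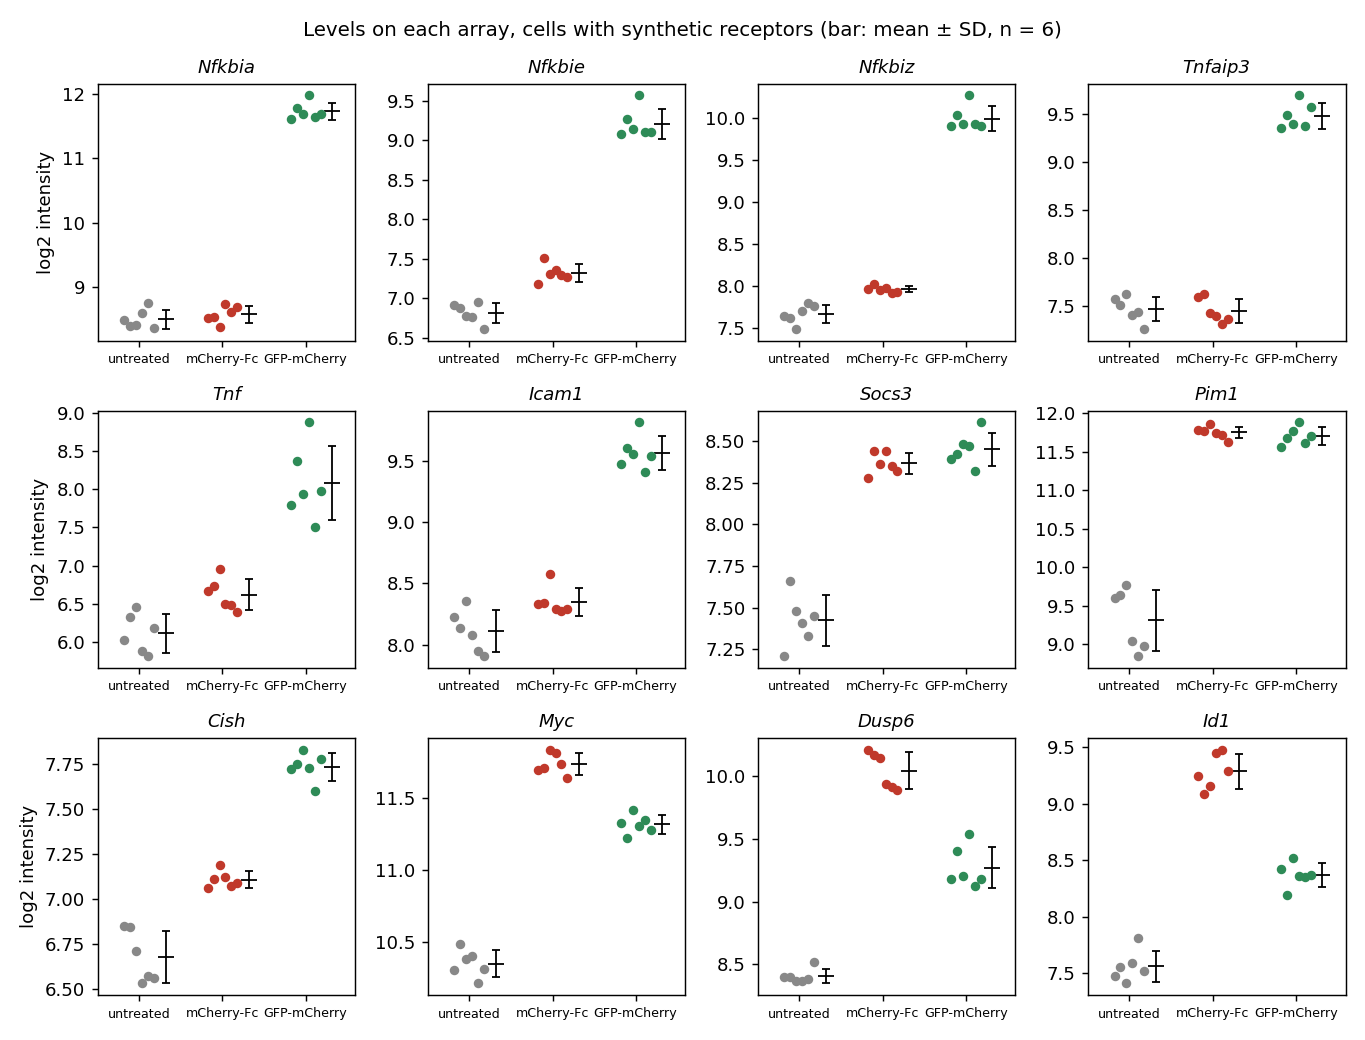
Log2 intensity (y axis) of 12 genes on each array of untreated, mCherry-Fc and GFP-mCherry cells with synthetic receptors, with the mean and SD of 6 arrays beside each group; the y axes differ between panels. Nfkbia and Tnfaip3 are at the untreated level with mCherry-Fc, Socs3 and Pim1 are above untreated and overlap between the ligands, and Myc, Dusp6 and Id1 are highest with mCherry-Fc.

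Promoters are shown because 22 of the 144 higher genes stand in the 3 NF-kB lists, a count with no enrichment test. The 250 bases before the start of each gene were taken from RefSeq (build GRCm38.p6), which held a promoter for 19 of the 25 genes with the largest rises and for 19 of the 25 with the largest falls. An NF-kB site was searched on both strands as GGGA and TTCC separated by any 2 bases. It was present in 4 of the 19 genes with large rises (Nfkbia, Neurl3, Ltb and Nfkb2) and in 0 of the 19 with large falls. By promoter, that is 21.7% of 23 in the first set and 0% of 28 in the second, against 1.21% of all 32851 promoters. A broader kB consensus, which includes every match of the first motif and was added after these counts were seen, matched 8 of the 19 and 2 of the 19 genes. By promoter, that is 43.5% and 7.14%, against 7.25% of all promoters. The promoters of Nfkbia (chr12:55492648-55492897, minus strand) and Ltb (chr17:35194257-35194506, plus strand) are printed with the match to the first motif in capitals, and those of Tnfaip3 (chr10:19015411-19015660, minus strand) and Nfkbie (chr17:45555450-45555699, plus strand) with the matches to the broader consensus in capitals, each 5′ to 3′ along the gene's strand. The first bases of the matches lie 29, 87, 125 and 12, and 106 bases before the start, in the order printed.
Nfkbia: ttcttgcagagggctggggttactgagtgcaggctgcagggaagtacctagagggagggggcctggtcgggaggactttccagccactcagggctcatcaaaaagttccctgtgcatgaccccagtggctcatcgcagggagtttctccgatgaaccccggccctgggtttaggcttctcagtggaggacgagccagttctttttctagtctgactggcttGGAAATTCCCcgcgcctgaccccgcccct
Ltb: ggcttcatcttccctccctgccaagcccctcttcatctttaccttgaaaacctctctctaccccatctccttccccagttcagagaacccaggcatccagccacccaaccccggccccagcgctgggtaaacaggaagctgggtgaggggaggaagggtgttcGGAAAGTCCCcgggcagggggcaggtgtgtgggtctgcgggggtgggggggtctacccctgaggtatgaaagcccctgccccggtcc
Tnfaip3: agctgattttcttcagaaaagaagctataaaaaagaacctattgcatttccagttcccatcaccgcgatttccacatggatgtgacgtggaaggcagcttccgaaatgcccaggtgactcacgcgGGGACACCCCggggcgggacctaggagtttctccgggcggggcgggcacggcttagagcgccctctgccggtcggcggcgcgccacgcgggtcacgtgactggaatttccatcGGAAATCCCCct
Nfkbie: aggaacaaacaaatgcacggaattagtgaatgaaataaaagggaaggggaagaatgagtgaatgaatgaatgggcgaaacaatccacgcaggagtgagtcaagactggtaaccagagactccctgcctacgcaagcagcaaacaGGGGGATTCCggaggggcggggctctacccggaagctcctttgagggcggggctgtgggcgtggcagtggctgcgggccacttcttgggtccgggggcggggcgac
A match of letters is a description of these windows and does not show that a factor binds there.

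The STAT motif TTCCNGGAA was found in 1 of 19 genes with large rises (Icam1) and 1 of 19 with large falls (Nrros), which is 4.35% and 3.57% of their promoters beside 0.913% of all promoters. The looser TTCNNNGAA, which includes every TTCCNGGAA, was found in 5 and 3 genes, which is 21.7% and 10.7% of their promoters beside 7.02% of all promoters. The E-box CACGTG, the core sequence bound by MYC and by several other factors, was found in 2 of 19 genes with large rises (Fas and Tnfaip3) and in 6 of 19 with large falls (Cited2, Crebrf, Egr2, Insig1, Parp11 and Sc5d), which is 8.7% and 21.4% of their promoters beside 6.02% of all promoters. Crebrf, which encodes a regulator of the unfolded protein response, is printed as the one of these with 2 matches, in capitals, in its plus-strand promoter at chr17:26715400-26715649.
Crebrf: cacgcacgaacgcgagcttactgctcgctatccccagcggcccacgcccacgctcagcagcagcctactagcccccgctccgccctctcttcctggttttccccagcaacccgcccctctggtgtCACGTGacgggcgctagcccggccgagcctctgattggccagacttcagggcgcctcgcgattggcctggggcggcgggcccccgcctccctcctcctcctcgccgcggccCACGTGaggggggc

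Among NF-kB subunits, kinases and the TRAF-cIAP genes, 5 of 17 measured members were higher and 0 lower (median 0.06). Nfkb2 and Relb encode the subunits of the noncanonical branch and are themselves NF-kB targets. Nfkb2 stood at 9.19, 9.27 and 9.35 with GFP-mCherry and at 8.17, 8.28 and 8.42 with mCherry-Fc, a difference of 0.96 (SE 0.06, adjusted p = 3.27e-12). Relb differed by 0.93 (SE 0.10, adjusted p = 3.17e-07). Birc3, which encodes the ubiquitin ligase cIAP2, differed by 0.97 (SE 0.06, adjusted p = 6.67e-12). The other 2 that passed were Traf1 (0.98, adjusted p = 4.3e-06) and the kinase gene Ikbke (0.68, adjusted p = 0.000371). The subunit genes Rela (0.06, 95% interval -0.11 to 0.23) and Rel (0.10, -0.10 to 0.30) did not pass, and their arrays overlapped between the ligands. Traf1, Ikbke, Rela and Rel lie outside the naming rule and were chosen after their values were seen.

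NF-kB effector genes were higher in part. 7 of 36 measured members passed, all higher (median 0.08): Gpr84, Tnf, Fas, Ltb, Icam1, Ier3 and Irf1. Tnf, the inflammatory cytokine, stood at 7.5, 7.96 and 8.87 with GFP-mCherry and at 6.40, 6.59 and 6.95 with mCherry-Fc. Its difference was 1.45 (SE 0.17, adjusted p = 3.39e-06), and its spread was wide, with an SD of 0.48 over the GFP-mCherry arrays. Icam1, an adhesion molecule, was tighter at 9.41, 9.55 and 9.81 against 8.28, 8.31 and 8.58 (difference 1.21, SE 0.08, adjusted p = 7.1e-11). Gpr84, a G protein-coupled receptor that senses medium-chain fatty acids, stood at 8.60, 8.69 and 8.97 against 6.32, 6.65 and 6.96 (difference 2.04, SE 0.11, adjusted p = 5.11e-13). In none of these 3 genes did the ligands overlap.

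Fas, the death receptor, differed by 1.30 (SE 0.19, adjusted p = 8.66e-05), and its mCherry-Fc arrays (6.57 to 6.87) lay within those of untreated cells (6.36 to 7.04). Irf1, an interferon-regulated transcription factor, differed by 0.83 (adjusted p = 1.16e-07), while a second, dimmer probe set of it gave 0.37 and did not pass (adjusted p = 0.0895). Ltb, which encodes lymphotoxin β (1.24, adjusted p = 1.13e-06), and the survival gene Ier3 (1.2, adjusted p = 0.0127) lie outside the naming rule. Ier3 lost its call with the replicate block (adjusted p = 0.12). Outside the lists, the hexose transporter gene Slc2a6 differed by 1.39 (SE 0.07, adjusted p = 3.41e-14) and the ubiquitin ligase gene Neurl3 by 1.31 (SE 0.12, adjusted p = 1.49e-08), both with mCherry-Fc arrays inside or near the untreated range. Map3k8, whose product TPL2 links NF-kB to the ERK pathway, was 1.08 higher (adjusted p = 1.15e-07), also outside the rule.

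Receptors that feed into NF-kB from microbial products were not higher as a group. Of 23 Toll-like receptor and co-receptor genes, 1 was higher, the adaptor kinase gene Irak2 (0.57, SE 0.08, adjusted p = 7.08e-05), and 0 lower, with a median of -0.02. Tlr4 (4.24 with GFP-mCherry, 4.31 with mCherry-Fc) and Cd14 (4.70 and 4.73), the lipopolysaccharide receptor and its co-receptor, were below every array's median. By contrast, Ly96 (9.40 and 9.66), Myd88 (9.80 and 9.78) and Tlr2 (7.41 and 7.26) were above every array's median, and did not pass between the ligands. Whether the cells respond to microbial products was not tested. Cd180, a B cell relative of Tlr4, was at 8.70, 8.77 and 9.31 with GFP-mCherry and at 9.39, 9.60 and 9.81 with mCherry-Fc. Its groups did not overlap, yet its difference of -0.72 had a large error (SE 0.24) and did not pass (adjusted p = 0.255). With the replicate block it was -0.68 and passed (adjusted p = 0.00209), as it did in the fit of the 12 arrays alone (0.00168). These genes lie outside the naming rule.

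RNA of the STAT3-induced genes Socs3 and Pim1 was close between the ligands, and STAT3 activity itself was not measured. Socs3 stood at 8.32, 8.44 and 8.61 with GFP-mCherry and at 8.28, 8.36 and 8.44 with mCherry-Fc, and both groups lay above every untreated array (7.21 to 7.66). The ligands differed by 0.08 (95% interval -0.06 to 0.23, adjusted p = 0.824), and a second probe set gave 0.03. Side by side, and sharing the 6 untreated arrays, GFP-mCherry was 1.02 and mCherry-Fc 0.94 above untreated cells. Pim1, a survival kinase gene that STAT3 and STAT5 induce, gave the same picture at 11.56, 11.70 and 11.88 against 11.63, 11.76 and 11.86 (difference -0.05, 95% interval -0.36 to 0.27, adjusted p = 0.975), with 2.39 and 2.44 over untreated cells. The intervals leave room for differences of up to 0.23 in Socs3 and 0.36 in Pim1.

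Within the STAT3 feedback and target list, 3 of 28 measured members were higher and 0 lower, with a median of 0.00. They were Il4ra, the IL-4 receptor chain (0.35, SE 0.07, adjusted p = 0.00389), the mucin gene Muc1 (0.43, SE 0.09, adjusted p = 0.0129) and the costimulatory ligand gene Icosl (0.41, SE 0.07, adjusted p = 0.00123). Il4ra and Icosl lost the call with the replicate block (adjusted p = 0.375 and 0.183), and Muc1 lost it after a further quantile normalization (0.0657) and within the lower replicate numbers (0.0839). Junb (0.28, adjusted p = 0.47), Bcl3 (adjusted p = 0.313) and Stat3 itself (-0.14, adjusted p = 0.351) did not pass. Within the higher replicate numbers Junb (0.5, adjusted p = 0.0243) and Bcl3 (0.39, 0.0109) did, beside 0.06 and 0.08 within the lower.

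Cish was the exception among the suppressors of cytokine signalling. It encodes CIS, an inhibitor induced mainly by STAT5, and stood at 7.60, 7.74 and 7.83 with GFP-mCherry, at 7.06, 7.10 and 7.19 with mCherry-Fc and at 6.53 to 6.85 without ligand. These 3 groups did not overlap. The difference between ligands was 0.63 (SE 0.11, adjusted p = 0.00112), and with the replicate block it was 0.61 with an adjusted p of 0.0747. Of the SOCS family 1 of 8 was higher. The other 7 (Socs1 to Socs7) lay between -0.14 and 0.09 and did not pass, among them Socs2 at 0.08, which stood above untreated with either ligand (0.61 and 0.53). Of 22 STAT5 targets, Cish was higher and Id1 lower (median -0.06). Pim2, at 0.48, had the largest difference of the 3 PIM kinases and did not pass (SE 0.17, adjusted p = 0.282), although it passed in the fit of the 12 arrays alone (0.0207), with the number range as a term (0.00234) and within the higher numbers (0.69, adjusted p = 0.00037). It was 2.33 above untreated with GFP-mCherry and 1.84 with mCherry-Fc, and the arrays of the ligands overlapped (10.31 to 10.82 against 9.68 to 10.33).

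The signalling chain itself differed little. None of the 9 Janus kinase and STAT genes passed in limma's test at the adjusted threshold, with differences from -0.18 (Stat2) to 0.19 (Stat6), and Stat5a was at 9.44 with GFP-mCherry and 9.43 with mCherry-Fc. The Stat6 arrays did not overlap between the ligands. Stat6 passed in the fit of the 12 arrays alone (adjusted p = 0.0452), with the number range as a term (0.0249) and within the higher numbers (0.00529). Stat2 passed with array weights (0.0464) and within the higher numbers (0.0326). Of 15 class II cytokine receptor and ligand genes, 1 was higher, Ifngr2, the second chain of the interferon-γ receptor. It stood at 10.33, 10.34 and 10.60 against 9.70, 9.77 and 9.82 and at 8.90 to 9.29 in untreated cells, 3 groups with no overlap (difference 0.65, SE 0.12, adjusted p = 0.00289). Ifnar1, a chain of the type I interferon receptor, missed the threshold (0.19, adjusted p = 0.0588) and passed in 10 alternatives, among them the random replicate block (0.0256). Il10rb, the gene of IL-10R2, was at 10.25, 10.30 and 10.37 with GFP-mCherry and at 10.02, 10.09 and 10.20 with mCherry-Fc. Its arrays did not overlap and its difference of 0.21 (95% interval 0.06 to 0.36) did not pass (adjusted p = 0.278), although it passed in a fit of the 12 arrays alone (adjusted p = 0.0175), with array weights (0.0323), with the number range as a term (0.00347) and within the lower numbers (0.00584). Il22ra1 stood at 6.24 with either ligand, and Il6st, the gene of gp130, was dim at 4.88 and 4.86. Which parts of the transferred chains these probe sets match is not given in the sources used here.

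mCherry-Fc gave the higher level for several genes of early growth factor signalling. Dusp6 encodes the phosphatase that switches off ERK and is itself induced by ERK. It stood at 9.12, 9.19 and 9.54 with GFP-mCherry and at 9.89, 10.04 and 10.21 with mCherry-Fc, and untreated arrays lay at 8.37 to 8.52. The difference was -0.78 (SE 0.09, adjusted p = 1.13e-06). Both ligands were thus above untreated cells, by 0.86 and 1.64, and the ligands did not overlap.

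Id1, an inhibitor of basic helix-loop-helix factors, had the same order: 8.19, 8.36 and 8.52 with GFP-mCherry, 9.09, 9.27 and 9.48 with mCherry-Fc and 7.41 to 7.81 without ligand (difference -0.92, SE 0.10, adjusted p = 8.88e-07). Myc, the growth regulator, was at 11.22, 11.32 and 11.42 against 11.64, 11.72 and 11.84, with untreated arrays at 10.21 to 10.48 (difference -0.42, SE 0.07, adjusted p = 0.000636). Its rises over untreated cells were 0.97 with GFP-mCherry and 1.40 with mCherry-Fc. Egr2 did not follow that order. It was at 6.59, 6.71 and 6.97 with GFP-mCherry, inside or near the untreated range of 6.70 to 6.91, and at 7.23, 7.44 and 7.57 with mCherry-Fc (difference -0.67, SE 0.13, adjusted p = 0.00544), and it lost the call with the replicate block (adjusted p = 0.281).

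The list of immediate early and ERK feedback genes split: 3 of 37 measured members were higher and 5 lower, with a median of 0.04. Phlda1, a pleckstrin-homology gene, was higher with GFP-mCherry (1.09, SE 0.13, adjusted p = 5.63e-06). The other higher members, Nr4a2 (0.41, adjusted p = 0.0225) and Jun (0.25, adjusted p = 0.0388), and the other lower ones, Spry4 (-0.35, adjusted p = 0.00114) and Ier2 (-0.35, adjusted p = 0.0169), are outside the naming rule. Nr4a2 lost the call in 7 of the fits that left out 1 array (adjusted p up to 0.0662) and Jun in 9 (up to 0.116). Spry4, Ier2 and Jun lost it with the replicate block (adjusted p = 0.061, 0.188 and 0.183), and Ier2 also without mCherry-Fc replicate 13 (0.0635). Spry4 encodes an inhibitor of receptor tyrosine kinase signalling. Etv5 (-0.35, adjusted p = 0.0792), Dusp4 (-0.32, adjusted p = 0.0954) and Fosl1 (-0.49, adjusted p = 0.0954), also ERK-responsive genes, did not pass, and neither did Spred2 (-0.02, 95% interval -0.15 to 0.11). A second, dimmer Etv5 probe set did pass (-0.37, adjusted p = 0.0362). With a random replicate block Etv5 and Dusp4 passed (0.0286 and 0.0426), and Fosl1 passed in the fit of the 12 arrays alone (0.000181). Egr1 did not pass (0.14, adjusted p = 0.783).

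In the lists of its usual companions, no gene passed beside Myc. Of 38 MYC and ribosome biogenesis genes, Myc alone passed (median -0.03). Differences in that list were below 0, as for Myc, in 26 members and above 0 in 12. Its median was 0.06 within the lower replicate numbers and -0.09 within the higher. None of the 23 cytosolic ribosomal protein genes, 40 oxidative phosphorylation subunits, 31 proteasome subunits, 18 translation factors, 28 glycolysis and hypoxia genes or 35 G1/S and replication genes passed in limma's test, with medians between -0.03 and 0.06. Differences were above 0 for 36 of the 40 oxidative phosphorylation and 25 of the 31 proteasome subunits, against 10151 of all 19938 genes. Since 1.09% of all genes passed, such low counts do not show that these lists stayed level. In all genes, 1751 had an unadjusted p below 0.05.

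Of the cholesterol synthesis genes, 6 of 21 measured members passed as lower with GFP-mCherry and 0 as higher (median -0.19), and 19 of 21 differences were below 0. Insig1, which encodes the sterol-sensing retention protein of the pathway and is itself a target of the SREBP factors, stood at 10.37, 10.48 and 10.53 with GFP-mCherry and at 10.94, 11.21 and 11.33 with mCherry-Fc, against 10.84 to 11.14 in untreated cells (difference -0.71, SE 0.16, adjusted p = 0.0161). Msmo1, a sterol demethylation enzyme, was at 10.51, 10.59 and 10.68 against 10.98, 11.17 and 11.18 (difference -0.52, SE 0.07, adjusted p = 7.08e-05). Both genes were apart between the ligands, with the lower level in the GFP-mCherry arrays.

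Fdft1, squalene synthase (-0.33, adjusted p = 0.00507), and Hmgcs1, the HMG-CoA synthase (-0.32, adjusted p = 0.0138), also passed, and both lost the call with the replicate block (adjusted p = 0.135 and 0.225). A second Fdft1 probe set gave -0.40 (adjusted p = 0.000227). Sc5d (-0.36, adjusted p = 0.0494) and the sterol carrier gene Stard4 (-0.35, adjusted p = 0.033), outside the naming rule, completed the 6. Lss, lanosterol synthase (-0.44), passed with the replicate block (-0.48, adjusted p = 0.0101). Sc5d lost the call without each of 10 single arrays in turn (adjusted p up to 0.135) and Stard4 without each of 9 (up to 0.0937) and with the replicate block (0.144). The size of the list's shift varied with the replicate numbers. Within numbers 7 to 11 its median was 0.00, with 11 differences above 0 and 10 below, 6 members lower and 1 higher by the test, and within numbers 12 to 15 it was -0.33 with 15 lower, and 2 members that did not pass over all arrays, Ebp (0.32 and -0.19, adjusted p = 0.0457) and Fdps (0.06 and -0.27, 0.0466), passed as different between the ranges. 4 members passed without GFP-mCherry replicate 7, 9, 11, 12 or 14, or without mCherry-Fc replicate 8, 13, 14 or 15.

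Of 26 measured genes of G2 and mitosis, 3 passed as lower with GFP-mCherry and 0 as higher. All 26 had a difference below 0 (median -0.15, range -0.34 to -0.04), in every scaling tried, against 9787 of 19938 genes in all. Within each number range 24 were below 0 and 2 above. All GFP-mCherry arrays lay below all mCherry-Fc arrays for 13 of the 26, and for 1.45% of all genes. The 3 that passed were Kif23, a kinesin of the cytokinesis midzone (-0.34, SE 0.05, adjusted p = 0.000438), its partner Prc1 (-0.22, adjusted p = 0.022) and the spindle assembly factor Tpx2 (-0.24, adjusted p = 0.0272). Prc1 and Tpx2 lost the call with the replicate block (adjusted p = 0.563 and 0.237) and Kif23 kept it. Prc1 also lost it without each of 5 single arrays in turn (up to 0.0877) and Tpx2 without each of 8 (up to 0.0835). 1 member passed without GFP-mCherry replicate 7 or 11, or without mCherry-Fc replicate 8 or 15. The members are co-regulated along the cell cycle, so their shared sign is not 26 independent observations. Against untreated cells the list's median was 0.06 with mCherry-Fc and -0.11 with GFP-mCherry, side by side and with shared untreated arrays.

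**Figure D3:**
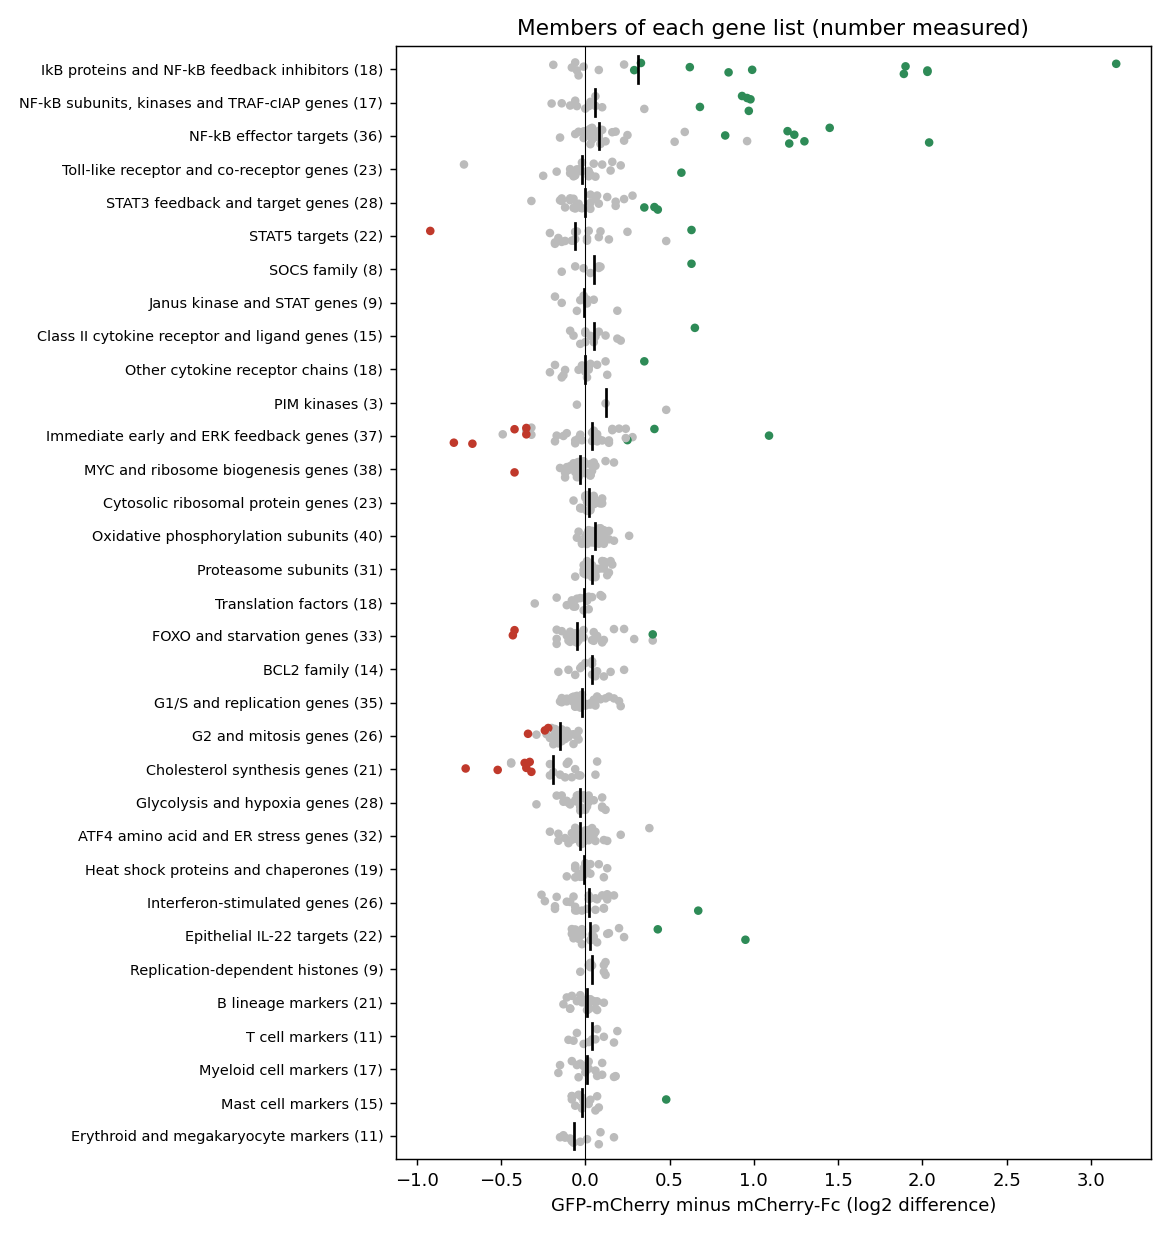
Log2 difference between GFP-mCherry and mCherry-Fc (x axis) for every measured member of the 33 gene lists (y axis, number measured in brackets), green where a member passed as higher, red as lower and grey where it did not pass, with the list median as a black bar. The IkB and feedback list reaches 3.15 with a median of 0.31, the cholesterol and G2 and mitosis lists lie mostly to the left of 0, and the ribosomal protein, oxidative phosphorylation and proteasome lists hold no coloured point.

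The largest falls outside these lists were of mixed kinds. Bex6 was at 6.63, 6.95 and 7.43 with GFP-mCherry and at 7.79, 8.04 and 8.39 with mCherry-Fc, where it overlapped untreated cells (7.61 to 8.10). It differed by -1.09 (SE 0.13, adjusted p = 3.56e-06) and was the one gene lower by at least 2-fold. Sla, an adaptor that dampens antigen receptor signalling, differed by -0.70 (SE 0.12, adjusted p = 0.000563) and Serpini1, a serine protease inhibitor, by -0.51 (SE 0.09, adjusted p = 0.00187). In both, as in Bex6, the mCherry-Fc level overlapped the untreated one and the GFP-mCherry mean lay lower. For Sla, though, the GFP-mCherry arrays (6.02 to 6.73) also overlapped the untreated ones (6.56 to 6.92). Hhex, a haematopoietic homeobox factor (-0.54, adjusted p = 0.00289), and Nrros, a TGF-β binding protein (-0.43, adjusted p = 3.51e-06), showed the other arrangement, with mCherry-Fc above untreated (0.61 and 0.56) and GFP-mCherry near it (0.07 and 0.13). Serpini1 and Hhex lost the call with the replicate block (adjusted p = 0.0768 and 0.054).

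Of 33 FOXO and starvation genes, 1 was higher and 2 lower (median -0.05). Sesn1, a stress-induced inhibitor of mTORC1, was higher (0.40, SE 0.08, adjusted p = 0.00623; 0.0727 with the replicate block), while Cited2, a transcriptional coregulator (-0.42, SE 0.06, adjusted p = 0.000184), and Crebrf (-0.43, SE 0.08, adjusted p = 0.00358; 0.34 with the block) were lower. None of 14 BCL2 family genes, 32 ATF4 target genes, 19 chaperone genes or 9 replication-dependent histone genes passed. Of 26 interferon-stimulated genes 1 was higher, the guanylate-binding protein gene Gbp3 (0.67, adjusted p = 0.0013; 0.212 with the block), and of 22 epithelial IL-22 targets 2 were higher, Muc1 and the acute-phase gene Hp (0.95, SE 0.07, adjusted p = 1.1e-10). Gbp3 and Hp lie outside the naming rule.

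Cells with natural receptors given IL-22 share no array with the ligands and show how the same genes moved when IL-22 joined its own receptor. Of the 144 genes higher with GFP-mCherry than with mCherry-Fc, 61 rose with IL-22 (42.4%) and 23 fell (16.0%), where 5.39% and 6.03% of all genes did. From the other side, these 61 were 5.67% of the 1075 genes that rose with IL-22. Of the 74 lower genes, 13 rose (17.6%) and 21 fell (28.4%). The NF-kB inhibitor genes were mixed: with IL-22, Nfkbia was at -0.07 (adjusted p = 0.92) and Nfkbie at 0.02 (adjusted p = 0.964), and Tnfaip3 fell (-0.51, adjusted p = 0.0218). Tnf (1.85), Icam1 (1.04), Fas (1.15), Tnip3 (1.99), Zc3h12a (0.82) and Cish (2.06) rose with IL-22.

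The titles number the arrays from 7 to 15 and mark no division. They were split here into a lower range, 7 to 11, and a higher one, 12 to 15, with 3 arrays of each ligand in each, because earlier work on these data had seen the ranges apart. On principal components of the 12 arrays, the first (25.8% of the variance) set the mCherry-Fc arrays of the higher numbers, at 13.0 to 17.0, apart from those of the lower numbers, at -9.2 to -3.2. GFP-mCherry arrays of both ranges lay between -12.0 and 3.5. The second component (17.6%) set the ligands apart, with GFP-mCherry arrays at 2.6 to 9.3. It also split the mCherry-Fc arrays by range, at -11.6 to -11.4 in the lower and -2.9 to -1.9 in the higher numbers. Since the cut was chosen with these data known, the tests on it are no independent evidence of a batch.

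The difference between ligands was therefore also taken within each range. All genes named by the rule that passed kept their direction in both: Nfkbia was 3.21 in the lower and 3.09 in the higher range, Tnfaip3 1.86 and 2.19, Cish 0.64 and 0.61, Myc -0.43 and -0.42, and Dusp6 -0.91 and -0.64. None of them passed the test of a difference between the ranges. That test called 185 genes (0.928% of those tested). Counted with its sign, the difference was higher in the higher numbers for 76 (0.381%) and lower there for 109 (0.547%). 5 of the 185 were among the 218, and 168 had opposite signs in the ranges. The count was 0 in a limma fit of the 12 arrays alone. Without GFP-mCherry replicate 7, 11 or 12 or mCherry-Fc replicate 8 it was also 0, without mCherry-Fc replicate 9, 10, 13, 14 or 15 it was 16, 1, 3, 7 and 6, and without GFP-mCherry replicate 9 or 13 it was 516 and 447.

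Some of those 185 are leukocyte genes, named here after their values were seen. Itgam, the integrin CD11b, was at 5.18 to 5.48 with GFP-mCherry and 5.74 to 6.02 with mCherry-Fc in the lower numbers, and at 5.25 to 6.0 and 4.72 to 5.34 in the higher ones. The sign of its difference turned from -0.56 to 0.69 (adjusted p of the change 0.0248). Untreated arrays of the same ranges were at 5.85 to 5.99 and 5.10 to 5.51, so mCherry-Fc and untreated arrays were both higher in the lower numbers. The chemokine gene Ccl6 (-0.67 and 0.38, adjusted p = 0.0185) and the interferon-induced membrane gene Ifitm6 (-0.82 and 1.03, adjusted p = 0.0403) turned in the same way. Averages over the 6 arrays hide such genes: Itgam differed by 0.06 and Ccl6 by -0.15 over all arrays.

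**Figure D4:**
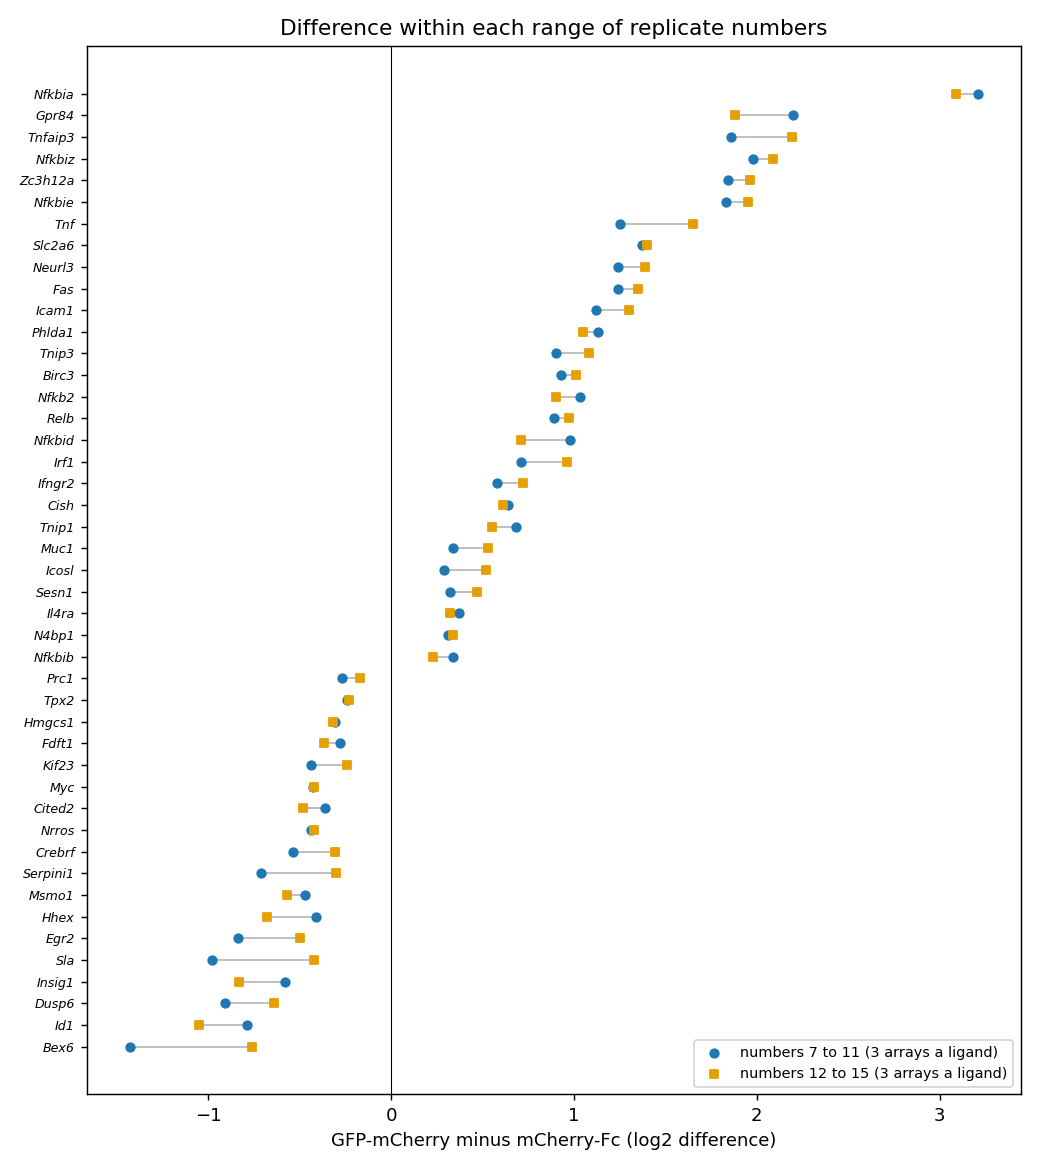
Log2 difference between GFP-mCherry and mCherry-Fc (x axis) within replicate numbers 7 to 11 (circles) and 12 to 15 (squares), 3 arrays of each ligand per range, for the genes named by the rule that passed the threshold (y axis). Each gene has both points on the same side of 0, from Nfkbia at 3.21 and 3.09 to Bex6 at -1.43 and -0.76.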

How the data were processed

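The authors deposited log2 intensities per probe set, computed in Affymetrix Expression Console 4.0 (core probe sets of genes or exons), according to the submitters' processing notes and per the labels; algorithm and background correction are not given in the sources used here. Values spanned 1.79 to 14.31, and no 2 arrays were identical. Of 35556 probe sets, 21789 had 1 gene symbol in the platform annotation, 1621 several and 12146 none; Entrez identifiers updated 21698 and 91 kept their name. For 999 genes with several probe sets the brightest was used, leaving 19938 genes without a filter. The number of arrays limits the precision.

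All 26 arrays in 5 groups entered 1 model (R 4.3.3, limma 3.58.1, lmFit and eBayes, two-sided, Benjamini-Hochberg over all genes, threshold 0.05). Numbers 9, 13 and 14 occur with both ligands. Deviations from the group means correlated at r = 0.22, 0.27 and 0.11 between same-numbered arrays. The same number was the best match for 1 of the 3, so these values do not settle whether arrays are paired. All estimates come from the unpaired model. The fit with a fixed replicate block is given where it changes the call of a gene named in the text. Of the mCherry-Fc arrays, only replicates 9, 13 and 14 inform its contrast, so a call lost there can come from fewer arrays.

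Named genes are the 10 largest rises and falls, the 3 smallest p of lists with 3 or more calls, a set list of signalling genes and members of 5 short families; others are said to be outside the rule. Members and lists were chosen with earlier results of these data known. The 33 lists held 682 measured genes. Alternatives were other normalizations, filters, probe set rules, variance models, array weights, a minimum change, blocks, number ranges and leaving out each array.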

Additional observations from a re-analysis of the deposited data

Results flagged for a closer look

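Of 258 group values checked, each the 6 arrays of a ligand for a named gene, 14 had an array that stood apart from the others by Dixon's criterion, where chance gives about 1 in 20. The gap to the nearest array, as a share of the group's range, is given for each. Among GFP-mCherry arrays, replicate 12 was high for Nfkbiz (0.66, at 10.27 against 10.03), Map3k8 (0.64), Tnip3 (0.78, at 6.52 against 6.07), Sesn1 (0.63) and Stat6 (0.69), and low for Il22ra1 (0.71) and Hhex (0.76). This array also stood at -16.2 on the third principal component of the 12 arrays, where the others lay between -5.0 and 9.2. Without it 196 genes passed in place of 218. The other GFP-mCherry arrays that stood apart were replicate 11, high for Gpr84 (0.68), replicate 13, high for Birc3 (0.75), and replicate 7, high for the dim Il20ra (0.74).

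Among mCherry-Fc arrays, replicate 10 was high for Slc2a6 (0.63) and Icam1 (0.79, at 8.58 against 8.34) and low for Irak2 (0.63), and replicate 9 was low for Il22ra1 (0.63). Csf2rb, the common β chain of the IL-3 receptor, differed between the ligands by -0.01 in the lower and -0.36 in the higher replicate numbers, and this change of -0.35 passed the test across all genes. Over all 12 arrays Csf2rb differed by -0.18 and did not pass (adjusted p = 0.751).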

How the results depend on the processing

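Of 129 named genes 63 passed, and none of the 63 turned direction in any of 26 alternatives; 15 kept their call in all of them. The count of 218 became 478 with array weights, 460 in a fit of the 12 arrays, 469 with a term for the number range, 642 within the lower and 757 within the higher numbers, 100 with the fixed replicate block and 16 with a minimum change of 1.5-fold. It ran from 166 to 200 without single arrays. The other alternatives gave 152 (centred arrays, 67.8% higher against 66.1%) to 304 (random replicate block), and 247 over all single-symbol probe sets, added after seeing the data. The 185 genes that differed between number ranges became 15 after centring, 361 and 942 with means of at least 5 and 7, 588 with a trended and robust prior, 812 with array weights, and 0 in limma fits of the 12 arrays or with a minimum change of 1.5-fold, and ran from 0 to 516 without single arrays; 2936 had an unadjusted p below 0.05. The cause of these shifts was not tested. A fixed replicate block was not run for that test.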

Other observations

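Probe sets named after microRNA genes, which read the primary transcripts and not the mature forms, lie outside the naming rule and were chosen after their values were seen. The mature sequences are shown (RefSeq, GRCm38.p6) with the seed, bases 2 to 8, in capitals, because the 17 and 18a members of the Mir17 cluster differ by 1 seed letter and so form different seed groups. Positions are chr14:115043684-115043706, chr14:115043867-115043889 and chr16:84714143-84714165, all on the plus strand.
mmu-miR-17-5p: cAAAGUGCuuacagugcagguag
mmu-miR-18a-5p: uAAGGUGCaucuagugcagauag
mmu-miR-155-5p: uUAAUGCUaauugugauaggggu
The Mir155 probe set was higher with GFP-mCherry, at 5.41, 5.63 and 5.82 (lowest, median, highest) against 5.10, 5.21 and 5.31 with mCherry-Fc (difference 0.40, SE 0.10, adjusted p = 0.0321), with no overlap. The Mir18 probe set was lower, at 4.39, 4.80 and 4.94 against 4.77, 5.57 and 6.05 (-0.73, SE 0.17, adjusted p = 0.021), and so was Mir17 (-0.39, SE 0.09, adjusted p = 0.0197); in both, the ligands overlapped. The host transcript Mir17hg did not pass (-0.47, adjusted p = 0.084), but did with a random replicate block (0.0446). All 4 probe sets lay below the array medians. Mir155 lost its call with the replicate block (adjusted p = 0.06) and without each of 8 single arrays in turn, with adjusted p of up to 0.111. Mir18 lost it with the block (0.071), within the lower numbers (0.0921) and without each of 6 single arrays (up to 0.0812), and Mir17 without each of 4 (up to 0.0788).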
